A study of Homo sapiens with 4 samples.

Results

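The genes described here are 10 enzymes that hydroxylate or crosslink collagen: the lysyl oxidases LOX, LOXL1, LOXL2, LOXL3 and LOXL4, the lysyl hydroxylases PLOD1, PLOD2 and PLOD3, and the prolyl 4-hydroxylase subunits P4HA1 and P4HA2. They were taken by symbol from the 60623 genes of the count files, and each of the 10 symbols had 1 row. BICR10, an established human line of head and neck cancer, was infected with lentivirus that carried a control hairpin (shControl, 2 libraries) or a hairpin against YEATS2 (shYEATS2, 2 libraries), and infected cells were selected with puromycin before RNA was taken. YEATS2 is a reader of acylated histones. Both groups carry a lentiviral hairpin. The hairpin in each shYEATS2 library, out of the pair that the methods list, is not given in the sources used here. The study states in general terms that its replicates are biological, but which cultures libraries 1 and 2 of a group came from is not described, and the p-values measure the spread between these libraries.

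Collagen chains are modified before they fold. In the endoplasmic reticulum, prolyl 4-hydroxylase, a tetramer of alpha subunits (P4HA1, P4HA2 or P4HA3) and the beta subunit P4HB, converts prolines so that the triple helix is stable, and lysyl hydroxylases convert lysines in the helix (PLOD1), in the telopeptides (PLOD2) or as a step before glycosylation (PLOD3). Both use iron, 2-oxoglutarate and ascorbate. Outside the cell, the copper-dependent lysyl oxidases turn lysine and hydroxylysine into aldehydes, from which crosslinks form, and telopeptide hydroxylation by PLOD2 decides which kind of crosslink results. LOX, PLOD2, P4HA1 and P4HA2 are known targets of the hypoxia-inducible factor HIF-1, whose binding site holds the letters ACGTG or GCGTG.

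Promoter windows of 300 bases, from 250 before to 50 after a RefSeq start on GRCh38, were searched on both strands for 9 of the 10 genes. LOXL2 was left out of this search. ACGTG was found at the first listed start of 3 of these 9 genes, LOX, PLOD2 and P4HA1, and in 21.4% of all 35116 windows. Together with GCGTG, the share of all windows was 48.4%, and among the enzymes LOX, PLOD2, P4HA1 and PLOD1 held either motif at the first listed start. The window of PLOD1 held 2 copies of GCGTG and no ACGTG, and those of P4HA2, LOXL1, LOXL4 and PLOD3 held neither motif. LOXL3 held neither motif at its first listed start and 1 GCGTG at its other listed start. Each ACGTG match upstream of the first listed start of LOX, PLOD2 and P4HA1 is printed here with 12 bases on either side. The stretches run 5′ to 3′ on the gene's strand (minus for all 3 genes). They are printed because these genes include the largest fall and the only rise among the enzymes. Not printed are 1 GCGTG in the PLOD2 window, and 1 ACGTG and 1 GCGTG in each window at the other listed starts of LOX. Capitals mark ACGTG or its reverse complement CACGT. Apart from the LOX stretch farthest from the start, the stretches lie in exons of some GENCODE transcripts, outside the exons of the canonical transcript. A match describes letters and not a bound site.
PLOD2, chr3:146161368-146161396: cgtgagcctccaCACGTagccgcaggcag
PLOD2, chr3:146161314-146161342: caaacagtccagACGTGgggcccaggagg
P4HA1, chr10:73096936-73096964: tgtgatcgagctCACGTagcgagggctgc
LOX, chr5:122078428-122078456: gctccctgtgcaACGTGtctggggggagg
LOX, chr5:122078359-122078387: ctgtccgccttgCACGTttccaatcgcat
LOX, chr5:122078341-122078369: tccaatcgcattACGTGaacaaatagctg
LOX, chr5:122078285-122078313: gtaactttgcaaACGTGccagaaagttta

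The totals of counts on genes were 47297970 and 39824898 in shControl, and 24072396 and 11334133 in shYEATS2, so depth was lower in both knockdown libraries and cannot be told apart from the hairpin. Levels are given as CPM, counts scaled to a common library total after TMM normalization, a correction for differences in composition between libraries. YEATS2 was at 66.1 and 66.7 CPM in the shControl libraries and at 29.2 and 29.1 CPM in the shYEATS2 libraries, lower in both. Markers of the labelled cell type were mixed. Of 13 epithelial markers, KRT8, KRT18 and SFN were well above 50 CPM in every library, whereas TP63 had at most 3 counts and KRT14, EPCAM and CDH1 stayed under 3 CPM on average in each group. KRT6A and KRT5, keratins of stratified epithelium, moved far more than any enzyme, from 56.6 to 1.79 and from 15.7 to 1.19 CPM on average (log2 fold changes −5.09 and −3.78), DSP, a desmosome protein, fell by 1.97 on the log2 scale, and CDH1 rose from 0.335 to 2.48 CPM. The summed epithelial list was 604 to 607 CPM in shControl and 337 to 364 CPM in shYEATS2, with 7 of 11 tested markers lower and 1 higher. The 11 fibroblast markers summed to 4046 to 4073 CPM in shControl and 1537 to 1626 CPM in shYEATS2, with 8 of 10 tested markers lower and 1 higher, and THY1 had at most 13 counts. Of all tested genes, 23.6% were called lower and 22.6% higher in the test described below. DCN, LUM and COL1A2, genes of the fibroblast list, were abundant in libraries of a carcinoma line. Others of that list were low in shControl, with PDGFRA at 2.73, COL6A3 at 4.71 and MFAP5 at 0.606 CPM on average. COL6A3 was the fibroblast marker called higher, reaching 26.0 CPM on average in shYEATS2, and FAP was not called. Endothelial markers summed to 35.6 and 36.6 CPM in shControl and to 18.9 and 20.2 CPM in shYEATS2, with 1 of 3 tested markers lower and 1 higher. Most of this sum was KDR, which was called lower and went from 34.4 to 17.2 CPM on average. Leukocyte markers summed to at most 1.85 CPM. The part of these markers in the results below was not tested, and in bulk RNA fewer cells of a type cannot be told apart from less RNA per cell.

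Silencing of YEATS2 went with lower mRNA of both prolyl hydroxylase subunits and of all 3 lysyl hydroxylases, while the lysyl oxidases moved in different directions. Of the 9 enzymes with enough counts to be tested, 7 were lower and 1 was higher in shYEATS2 at an adjusted p under 0.05 (edgeR's quasi-likelihood test, Benjamini-Hochberg adjustment over all 17058 tested genes), and LOXL3 was not called. Over all tested genes, 23.6% were called lower and 22.6% higher. With 7 of 9, the enzymes were called lower more often than the tested genes at large, although these genes were not sampled at random and no set test was made. Apart from LOXL1 and LOXL3, the tested enzymes lay at percentiles 93.1 to 99.2 of mean CPM. Small changes are easier to call at such levels, and no share was taken over genes of like level. The median log2 fold change of the 9 enzymes was −0.29, beside −0.01 for all tested genes. Library by library, both knockdown values were below both control values for 7 enzymes and above them for 1, the groups overlapped for 1, and over all tested genes the shares below and above were 36.3% and 35.3%. No enzyme changed by 2-fold or more. The smallest two-sided p that an exact permutation test allows with this design is 0.333. With counts thinned to the smallest library total, 7 enzymes were again lower and 1 was higher.

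**Figure D1:**
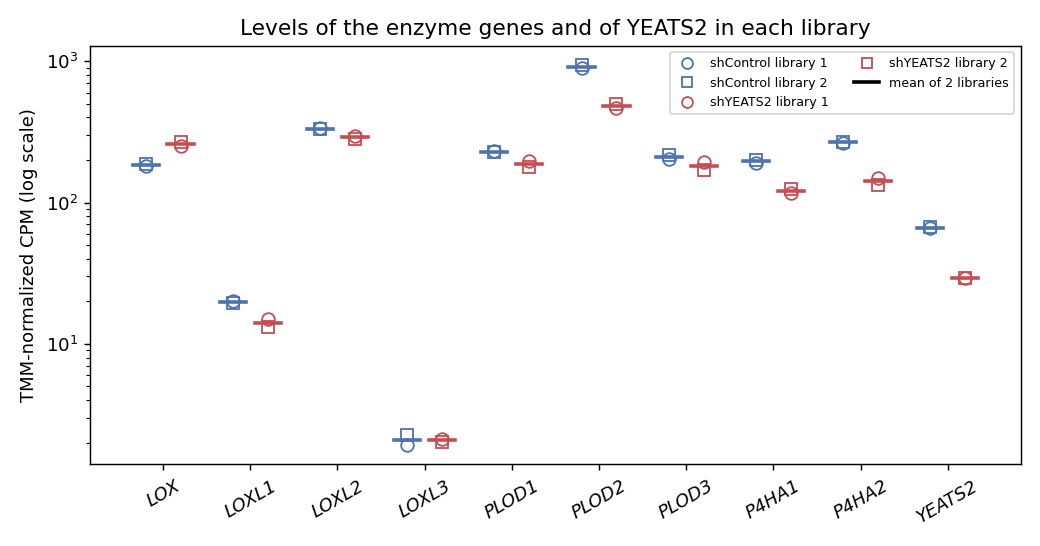
Each point is the TMM-normalized CPM (log axis) of 1 library, with circles for library 1 and squares for library 2 of shControl (blue) and shYEATS2 (red), and bars for the mean of 2 libraries. LOX lies higher in both shYEATS2 libraries, the groups of LOXL3 overlap and the other enzymes lie lower; LOXL4, with 1 count in all, is not drawn.

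The prolyl 4-hydroxylase subunits both fell. P4HA1 (ENSG00000122884, chr10:73007217-73096974, minus strand, GRCh38), the subunit of the type I enzyme, was at 189.6 and 201 CPM in shControl and at 117 and 124 CPM in shYEATS2. This was 61.7% of the control level, a log2 fold change of −0.70 (standard error 0.06, adjusted p = 4.3e-15 from edgeR). P4HA2 (ENSG00000072682, chr5:132190147-132295315, minus strand), the subunit of the type II enzyme, was at 265 and 269.5 CPM in shControl and at 149.5 and 133 CPM in shYEATS2. Both shYEATS2 libraries were thus well below both shControl libraries for either gene, and the gap between groups was larger than that between libraries of a group. P4HA2 kept 53.1% of the control level, a log2 fold change of −0.91 (standard error 0.06, adjusted p = 2.1e-20 from edgeR). The log2 ratio of P4HA1 to P4HA2 was −0.49 and −0.42 in shControl and −0.35 and −0.10 in shYEATS2. The ratio was higher in both shYEATS2 libraries, with a spread between them of the same order as the shift. Of the P4HA2 exon bases, 5.41% are shared with P4HA2-AS1 on the other strand.

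P4HB, the beta subunit, which is also a general disulfide isomerase, changed less than its partners. Its mean level was 1423 ± 3.46 CPM in the control and 1251 ± 41.0 CPM in the knockdown (SD, n = 2 each), or −0.19 on the log2 scale (standard error 0.06, adjusted p = 0.0062 from edgeR). P4HA3, the third alpha subunit, was low, at 5.43 ± 0.423 and 5.83 ± 0.686 CPM (SD, n = 2 each), and was not called. Levels of different genes can be compared per kilobase once a length is chosen. Per kilobase of canonical transcript, the alpha subunits summed to 22.2% and 23.1% of P4HB in shControl and to 14.9% and 15.4% in shYEATS2. The alpha subunit mRNA was therefore scarcer beside that of P4HB in both knockdown libraries. The percentages themselves depend on the lengths. With all annotated exons joined, shControl means were 63.1 (P4HA1), 26.4 (P4HA2), 1.36 (P4HA3) and 127.9 (P4HB) CPM per kb.

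Among the lysyl hydroxylases, PLOD2 fell most. PLOD2 (ENSG00000152952, chr3:146035139-146163725, minus strand), which acts on the telopeptides, was at 889 and 940.2 CPM in the shControl libraries and at 466 and 497 CPM in the shYEATS2 libraries. The libraries of each group lay close together and the groups were far apart. PLOD2 kept 52.6% of the control level, a log2 fold change of −0.93 (95% interval −1.04 to −0.81, adjusted p = 7e-22 from edgeR). Per kilobase of canonical transcript it had the highest control level of the enzymes, 244 CPM per kb beside 89.6 for LOXL2, but with the length of all its annotated exons joined PLOD2 (63.0) and P4HA1 (63.1) stood level. PLOD1 (ENSG00000083444, chr1:11934205-11975538, plus strand), which acts on the helix, was at 232 and 226 CPM in shControl and at 196 and 179 CPM in shYEATS2. The fall was modest, −0.29 on the log2 scale (standard error 0.06, adjusted p = 6.6e-05 from edgeR). PLOD3 (ENSG00000106397, chr7:101205977-101218420, minus strand), which also carries glycosyltransferase activity, was at 204 and 215 CPM in shControl and at 195 and 170.0 CPM in shYEATS2.

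The groups of PLOD3 were separate, but the gap between them was smaller than the distance between the shYEATS2 libraries. PLOD3 had a log2 fold change of −0.19 (standard error 0.06, adjusted p = 0.0082 from edgeR). The call was lost without shYEATS2 replicate 2 (log2 fold change −0.11, adjusted p = 0.088), where edgeR takes the lone library to vary like the other group, and without shControl replicate 2 (−0.16, adjusted p = 0.15). Without shYEATS2 replicate 1 the value was −0.31. When libraries were scaled by their totals alone, the PLOD3 value was −0.06 (adjusted p = 0.46) and the PLOD1 value −0.15 (adjusted p = 0.037). Under this scaling the median over all tested genes moved from −0.01 to 0.13 on the log2 scale, which turned the split of calls from 4019 lower and 3857 higher into 2567 lower and 5441 higher, so that both genes stayed below the median gene.

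The fall of PLOD2 went beyond that of its paralogs in each library. The log2 ratio of PLOD2 to PLOD1 was 1.94 and 2.05 in shControl and 1.25 and 1.48 in shYEATS2, and that of PLOD2 to PLOD3 was 2.13 in both shControl libraries and 1.26 and 1.55 in shYEATS2. These ratios do not depend on the scaling between libraries, and those of the knockdown were lower in both libraries. Against P4HA2, the ratio of PLOD2 was 1.74 and 1.80 in shControl and 1.64 and 1.90 in shYEATS2, so the ranges overlapped and no shift could be seen beyond the spread. Against P4HA1, the ratio was 2.23 in both shControl libraries, and its mean fell by 0.23 on the log2 scale.

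**Figure D2:**
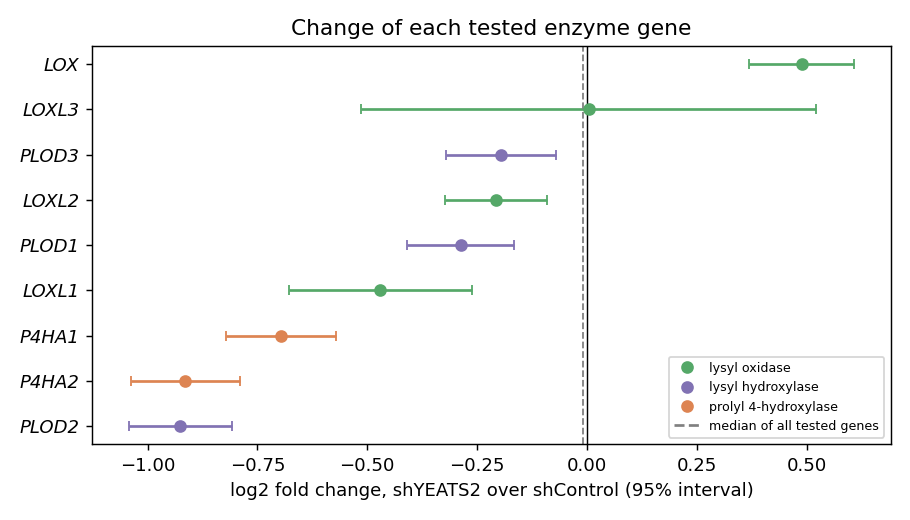
Points are log2 fold changes of shYEATS2 over shControl from edgeR with 95% intervals, coloured by enzyme class. PLOD2, P4HA2 and P4HA1 lie between −0.93 and −0.70, LOX lies at 0.49, and the wide interval of LOXL3 spans 0; the dashed line is the median of all tested genes (−0.01).

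The lysyl oxidases did not move as one. LOX (ENSG00000113083, chr5:122063195-122078413, minus strand), the founding member of the family, was at 182 and 188 CPM in shControl and at 253 and 267 CPM in shYEATS2. Both shYEATS2 libraries were above both shControl libraries. LOX rose 1.40-fold, 0.49 on the log2 scale (95% interval 0.37 to 0.61, adjusted p = 2.4e-10 from edgeR). LOXL2 (ENSG00000134013), which also oxidizes the collagen of basement membranes, was at 335 and 332 CPM in shControl and at 295 and 282 CPM in shYEATS2. It was lower in both knockdown libraries by a small margin, −0.21 on the log2 scale (standard error 0.06, adjusted p = 0.0026 from edgeR). The LOXL2 call was lost when libraries were scaled by totals alone (log2 fold change −0.07, adjusted p = 0.3) and without shControl replicate 1 (−0.20, adjusted p = 0.054).

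LOXL1 (ENSG00000129038, chr15:73925989-73952137, plus strand), which is tied to elastic fibres, was at 20.2 and 19.3 CPM in shControl and at 14.96 and 13.2 CPM in shYEATS2. The groups were separate at this lower level, and the log2 fold change was −0.47 (standard error 0.10, adjusted p = 0.00013 from edgeR). Its exons share 9.21% of their bases with the antisense gene LOXL1-AS1. LOXL3 (ENSG00000115318, chr2:74532258-74555690, minus strand) was near the limit of these libraries, with 87 and 86 counts in shControl and 54 and 24 in shYEATS2, or 1.92, 2.28, 2.13 and 2.04 CPM in the same order. The groups overlapped, the log2 fold change was 0.00 and its 95% interval ran from −0.51 to 0.52, so a change of LOXL3 of the size seen for LOX could not be detected at this depth. Of the LOXL3 exon bases, 25.5% are shared with HTRA2 and DOK1 on the other strand, and the strand setting of the counting is not given in the sources used here. LOXL4 (ENSG00000138131, chr10:98247690-98268194, minus strand) had 1 count in shControl 2 and 0 in the other libraries, where 3 counts, the limit that a count of 0 allows, correspond to 0.0661 to 0.255 CPM, counting error only.

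LOX mRNA gained on that of LOXL2 and LOXL1, with the order of the family kept. The log2 ratio of LOX to LOXL2 was −0.88 and −0.82 in shControl and −0.22 and −0.08 in shYEATS2, and that of LOX to LOXL1 rose from 3.17 and 3.29 to 4.08 and 4.33. Both ratios, which do not depend on the scaling, were higher in both knockdown libraries than in either control library. The ratio of LOX to PLOD2 showed the widest shift of the pairs compared, from −2.29 and −2.32 to −0.88 and −0.90. It changed by 1.41 on the log2 scale, and the libraries of a group differed by little beside that.

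On the per kilobase scale, the 5 lysyl oxidase genes summed to 135.0 and 135.1 CPM per kb in the shControl libraries and to 136.0 and 134.7 CPM per kb in the shYEATS2 libraries. The totals overlapped, while the make-up changed. LOX made up 26.5% and 27.5% of the total in shControl and 36.6% and 39.0% in shYEATS2, LOXL2 went from 66.7% and 66.0% to 58.3% and 56.4%, and LOXL1 from 6.39% and 6.09% to 4.69% and 4.19%. On this scale LOXL2 had the highest level of the 5 genes in each library. The sum depends on the lengths and the scaling, since it was 100.2% of the control mean here, 104.6% with the length of all annotated exons joined and 109.9% with library totals alone.

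The lysyl hydroxylase genes summed to 387 and 403 CPM per kb in shControl and to 259 and 253 CPM per kb in shYEATS2, or 64.8% of the control mean. PLOD2 supplied 61.2% and 62.2% of this sum in shControl and 48.0% and 52.4% in shYEATS2. The shares of PLOD1 and PLOD3 were correspondingly larger, although neither gene rose. P4HA1 and P4HA2 together were at 127 and 133 CPM per kb in shControl and at 75.6 and 74.6 CPM per kb in shYEATS2, or 57.8% of the control mean. In either class both knockdown libraries lay below both control libraries.

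**Figure D3:**
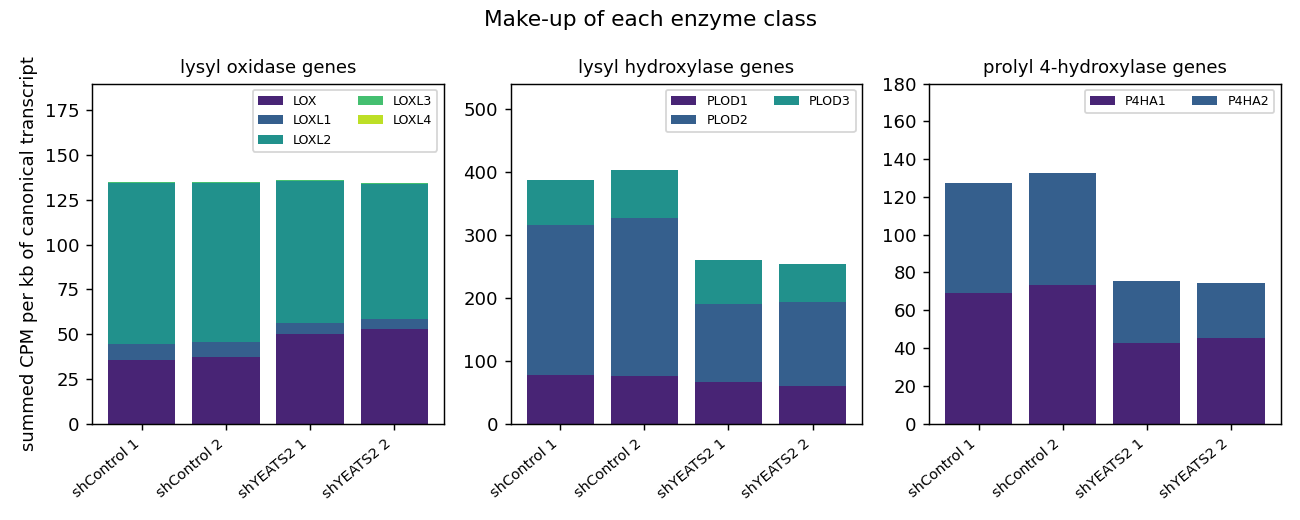
Stacked bars give the CPM per kilobase of canonical transcript of each enzyme gene in each library, by class, on axes that start at 0 and differ between classes. The lysyl oxidase sum stays near 135 CPM per kb in all 4 libraries with a larger LOX share in shYEATS2, while the lysyl hydroxylase and prolyl 4-hydroxylase sums are at 64.8% and 57.8% of their control means.

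Among the substrates of these enzymes, the main fibrillar collagens fell further than any of the enzymes, and the other listed collagens did not. Of 14 collagen and elastin genes, 12 passed the filter on low counts, with a median log2 fold change of −0.45. Of these 12, 8 were lower and 0 higher, beside 23.6% and 22.6% of all tested genes. COL3A1, COL1A2 and COL1A1, chains of types III and I collagen, had the largest falls, with log2 fold changes of −2.14, −1.67 and −1.65. The other called genes, COL5A2, COL5A1, COL5A3, COL4A1 and COL4A2, lay between −0.82 and −0.28, above the value of PLOD2. The 11 fibrillar collagen genes summed to 1574 and 1548 CPM per kb in shControl and to 599 and 564 CPM per kb in shYEATS2, or 37.3% of the control mean. The mRNA ratio of hydroxylases to fibrillar collagens rose from 0.327 and 0.346 to 0.558 and 0.581. For the lysyl oxidases the ratio rose from 0.0858 and 0.0873 to 0.227 and 0.239. The enzyme mRNA per fibrillar collagen mRNA was thus higher in both shYEATS2 libraries, including for the classes whose own level was lower. COL4A1 and COL4A2 are not part of this collagen sum, and the ratios depend on the transcript lengths chosen. COL1A2 is also one of the fibroblast markers, whose list fell in the same libraries as given above. COL6A3, a collagen chain counted with those markers and not here, rose.

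Other genes were counted from 5 lists with 74 tested genes, of which 3 lists concern collagen (its folding, its processing and the substrates above) and the others hold related hydroxylases and the hypoxia response. Over all 5 lists, 37 were lower and 10 higher (50% and 13.5%), beside 23.6% and 22.6% of all tested genes. Among 15 tested genes of collagen folding and modification in the endoplasmic reticulum, 7 were lower and 2 higher, with a median log2 fold change of −0.24. PPIB, the isomerase cyclophilin B that works with prolyl 3-hydroxylase 1, fell from 789 ± 7.12 to 397 ± 11.3 CPM (SD, n = 2 each; log2 fold change −0.99, adjusted p = 1.6e-23 from edgeR). FKBP7, another isomerase of this compartment, fell with a log2 fold change of −0.64. P3H2, a prolyl 3-hydroxylase, rose from 42.9 ± 3.60 to 77.2 ± 2.63 CPM (SD, n = 2 each; log2 fold change 0.85, adjusted p = 6.3e-16 from edgeR). Among 14 tested genes of procollagen processing and lysyl oxidase maturation, 6 were lower and 2 higher, with a median of −0.17. POSTN, a matrix protein that brings the protease BMP1 to LOX, fell with a log2 fold change of −1.98. TLL1, a protease of the BMP1 family, and FBLN5, a binding partner of LOXL1, fell with log2 fold changes of −1.81 and −1.05. BMP1 itself, which releases the active form of LOX, fell from 71.6 ± 0.607 to 50.7 ± 3.11 CPM (SD, n = 2 each; log2 fold change −0.49, adjusted p = 4.1e-08 from edgeR), chosen for this role.

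Of 13 tested hydroxylases of the same cofactor type that do not act on collagen, 4 were lower and 3 higher. Their median log2 fold change was −0.14. Among all tested genes 23.6% were lower and 22.6% higher, so this split was near that of genes at large. JMJD6, a lysyl hydroxylase of splicing factors, rose by 0.40 on the log2 scale, whereas EGLN1, the main HIF prolyl hydroxylase, and ASPH, which hydroxylates aspartate and asparagine, had log2 fold changes of −0.35 and −0.26, both called lower. These counts were unstable. With library totals alone, 1 of this list was lower and 5 were higher, DESeq2 and thinned counts each gave 2 lower, and the number lower was 2 without shControl 2, 2 without shYEATS2 1 and 6 without shYEATS2 2, while 1 was higher without shControl 1. Of 20 genes of the hypoxia response, all tested and without the enzymes described here, 12 were lower and 3 higher (5 higher with library totals alone), with a median of −0.35. The number lower was 8 with thinned counts, 9 with DESeq2, 10 with library totals alone and 14 with no filter. CA9, a carbonic anhydrase, BHLHE40, a transcriptional repressor, and PDK1, a kinase that restrains pyruvate dehydrogenase, had log2 fold changes of −1.34, −0.82 and −0.76. HIF1A, which encodes the oxygen-regulated subunit of HIF-1, had mean levels of 618 ± 27.6 and 638 ± 21.8 CPM in the control and the knockdown (SD, n = 2 each) and was not called. PLOD2, P4HA1 and P4HA2 were lower alongside 12 of the 20 hypoxia genes in the edgeR test. LOX, which has the same textbook regulator, was higher in the same libraries. The part of HIF-1 in these changes was not tested.

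**Figure D4:**
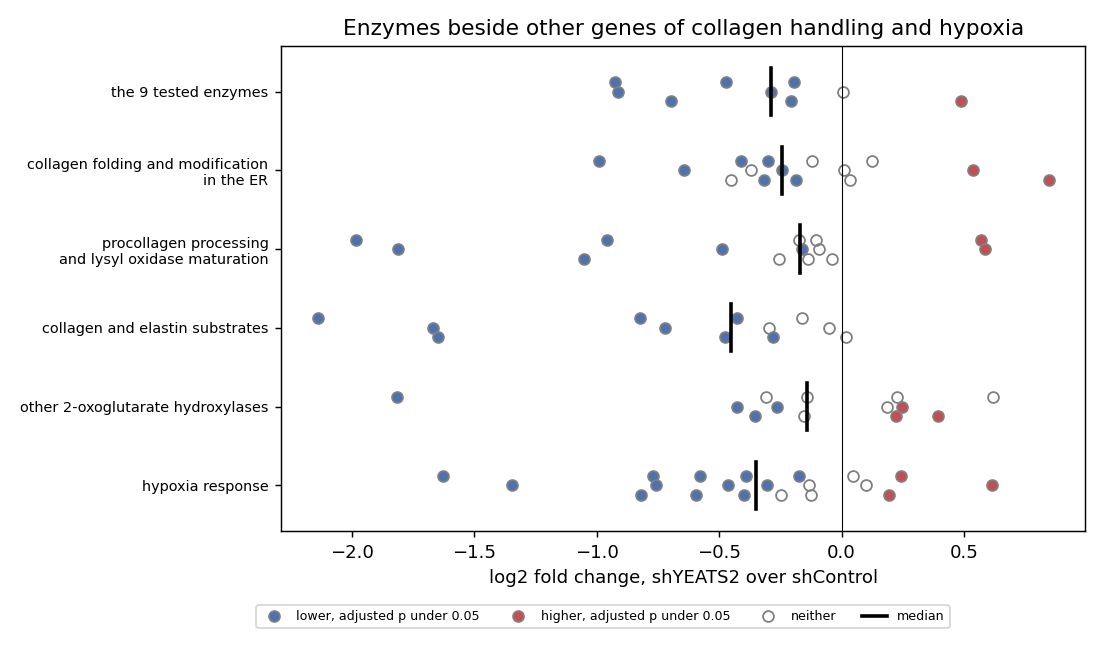
Each point is the log2 fold change of shYEATS2 over shControl of 1 tested gene, blue where called lower, red where called higher and open where neither, with a bar for the median of each list. Of the 9 enzymes, 7 are called lower; the collagen substrates reach −2.14, past the lowest enzyme value of −0.93.

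The genes whose pattern came closest to that of PLOD2 were sought among 9364 other genes whose mean reached 10 CPM, by the root mean square distance of log2 CPM, centred per gene, over the 4 libraries. They were DSEL, DEAF1 and VASN, at distances of 0.01, 0.01 and 0.02. DSEL, an epimerase-like gene of dermatan sulfate synthesis, went from 201 to 105 CPM, DEAF1, a transcription factor, from 36.2 to 19.3 CPM and VASN, a cell surface protein that binds TGF-beta, from 16.2 to 8.46 CPM, as means of 2 libraries. With 4 libraries in 2 groups, this likeness amounts to an equal fold change and an equal spread.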

How the data were processed

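Libraries of polyA RNA from BICR10 cells (2 shControl, 2 shYEATS2) were made with a stranded kit and sequenced as 150 bp pairs. Per the labels and the study's methods, STAR was used for alignment to GRCh38 and HTSeq for counting, and the deposited values are raw counts per Ensembl gene. The annotation release and strand setting are not given in the sources used here. Pairs tallied to no gene (15.3% to 16.5% of each library) stayed out of library sizes and tests. Genes passing edgeR's filterByExpr (17058) were normalized by TMM, and the quasi-likelihood test of edgeR 4.0.16 (R 4.3.3, robust glmQLFit) was called at an adjusted p under 0.05, and the procedure was tested on simulated data. A standard error is the log2 fold change over the square root of F. Levels per kilobase used the canonical transcript of GENCODE 44, and motifs the RefSeq promoter table (GRCh38.p14). Replicates differed by more than counting noise (chi-square per degree of freedom 7.11 in shControl, 6.13 in shYEATS2), and the precision of low genes is limited by depth, down to 11334133 counts. The enzymes and lists were chosen with earlier results of these data known. Besides the enzymes and YEATS2, the text names from each list the 3 called genes of mean 10 CPM or more with the largest change. It also names P4HB, P4HA3, BMP1, HIF1A and the markers for their roles. The other called collagens, the markers KRT6A, KRT5, DSP, PDGFRA, MFAP5, COL6A3, FAP and KDR and genes that rose were named after their values were seen. Alternatives were other scalings, filters and tests (DESeq2 1.42.0, limma-voom with limma 3.58.1), a replicate block, thinned counts, a 2-fold minimum and leaving out each library. The sequence of the LOXL2 promoter is not used here.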

Additional observations from a re-analysis of the deposited data

How the results depend on the processing

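Over 13 alternatives each, LOX, LOXL1, PLOD1, PLOD2, P4HA1 and P4HA2 kept their direction and their call, with log2 fold changes of PLOD2 from −0.98 to −0.79, of P4HA2 from −1.02 to −0.78, of P4HA1 from −0.74 to −0.56 and of LOX from 0.44 to 0.62. LOXL2 lost its call under 2 alternatives and PLOD3 under 3, as given with their values, and the cause was not tested. LOXL3, never called, turned to −0.0425 with no filter and to −0.28 with counts thinned to the smallest total, and ranged from −0.12 to 0.12 over the fits without 1 library. The number of enzymes called lower was 7 with DESeq2 and limma-voom, 5 with library totals alone and 6 to 7 without 1 library, and the number called higher was 1 in each of these fits. A minimum of 2-fold left 0 lower and 0 higher, and in the 5 lists 9 genes in all (9 lower, 0 higher) of 47. Chosen after the data were seen, other lengths and scalings gave summed levels, as percent of control, of 104.6%, 109.9% and 101.1% for the lysyl oxidases (joined exons, library totals, upper quartile), 70.3% and 71.1% for the lysyl hydroxylases (joined exons, library totals) and 63.4% for the prolyl 4-hydroxylases (library totals). Replicate numbers name the libraries, and whether they pair libraries across groups is not described. The within-group deviations correlated at −0.02 over all tested genes. That value does not settle pairing, since counting noise of low genes enters it. With the replicate block, 7 enzymes were lower and 1 higher, and the pathway lists gave 50 calls in place of 47. Depth limits LOXL3 and LOXL4 most.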

Other observations

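The 10 genes that rose in the 5 lists, named after their values were seen, were spread over 4 of them. P3H2 (log2 fold change 0.85) and MIA2 (0.54), an export factor for large cargo, rose among the genes of the endoplasmic reticulum. PCOLCE2 (0.59), an enhancer of procollagen C-proteinase, and SLC31A1 (0.57), the main copper importer of the cell, rose among the processing and maturation genes. SLC31A1 went from 112 ± 0.0452 to 166 ± 0.957 CPM (SD, n = 2 each), with both shYEATS2 libraries above both shControl libraries. ATP7A, which delivers copper to the secretory pathway where lysyl oxidases are loaded, went the other way, from 74.9 ± 0.764 to 66.9 ± 0.696 CPM (SD, n = 2 each; log2 fold change −0.16, adjusted p = 0.047 from edgeR). That value lay just under the threshold. The list that holds ATP7A had 6 genes lower here, 5 with DESeq2, library totals alone or thinned counts, and 7 with the replicate block. JMJD6 (0.40), OGFOD1 (0.25) and RIOX2 (0.22) rose among the other hydroxylases, and HK2 (0.62), VEGFA (0.24) and EPAS1 (0.19) among the hypoxia genes. No gene of the collagen and elastin list was called higher by edgeR, and its 12 tested members held 8 calls, all lower. That list does not cover all collagens. COL6A3, a collagen chain counted only with the fibroblast markers, was called higher (log2 fold change 2.47, adjusted p = 1.3e-28 from edgeR).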
